A study of Mus musculus with 4 samples.

Results

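The cells described here were proliferating endothelial cells (ECs) of fibrotic mouse lungs, that is, ECs with RNA of genes that are switched on when a cell replicates its DNA and divides. They were selected on their own single-cell RNA-seq counts, which are unique molecular identifiers (UMIs, each standing for 1 captured RNA molecule). A cell had to hold 200 to 7500 genes and at most 15% mitochondrial UMIs, at least 1 UMI of Cdh5 (VE-cadherin, the adhesion molecule of endothelial junctions), UMIs of at least 2 of the 5 cycle genes Mki67, Top2a, Ube2c, Cdc20 and Pbk, and no UMI of Ptprc (the leukocyte antigen CD45), Epcam (an epithelial adhesion molecule) or Pdgfra (a fibroblast receptor). This left 120 cells of 32121 in the series and of 3262 ECs that passed the same gate. The cells they were compared with are the 2817 gated ECs without a UMI of any of the 5 genes, called non-cycling ECs. The remaining 325 gated ECs had 1 of the 5 genes and entered neither class.

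The lungs came from 2 wild-type (WT) and 2 Tubb3-/- mice, killed 14 days after 0.8 U/kg bleomycin was given into the trachea. The Tubb3-/- mice were homozygous for a Cre knock-in at the translation start of Tubb3, the gene of the tubulin isotype β-III tubulin, so they lacked the gene in every cell and carried Cre. The WT mice were their littermates, mice of both sexes were used, and they were 8 to 11 weeks old. All mice had received bleomycin, so the data hold no uninjured lung. Each mouse gave a sample of whole lung cells, from which red blood cells had been removed with TER-119 antibody. Each also gave a mural cell-enriched sample, from which CD31, CD45, EpCAM and TER-119 positive cells had been removed. The samples were tagged by mouse, and the mice of each sample type were pooled before sorting and capture. In the mural cell-enriched pool, MCAM+ PDGFRα- cells and MCAM- cells were mixed at 1:1. Below, a library is the part of a pool that the tags assign to a mouse.

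Lung capillaries hold general capillary ECs (gCap), which act as progenitors, and aerocytes (aCap), large thin ECs specialized for gas exchange. ECs of an adult lung rarely divide, but after injury capillary ECs re-enter the cell cycle to rebuild the vessels. A dividing cell first licenses and copies its DNA in S phase, then condenses its chromosomes, builds a spindle from tubulin and separates the daughter cells in G2 and M phase. Genes of the late steps are kept silent in resting cells by the DREAM complex, which binds a short promoter element, the cell cycle genes homology region (CHR), together with neighboring CCAAT boxes that bind NF-Y.

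The 5 cycle genes of the gate belong to these late steps. Mki67 encodes the Ki-67 protein that coats mitotic chromosomes, Top2a the topoisomerase that untangles them, Ube2c and Cdc20 a ubiquitin-conjugating enzyme and an activator of the anaphase-promoting complex, and Pbk a mitotic kinase. Promoters of 4 of the 5 genes were found in RefSeq (GRCm38.p6) and are shown here because the gate rests on these genes. Each runs from 250 bases before to 50 bases after the start of the gene, 5′ to 3′ on the strand of the gene. Capitals mark the CHR core TTTGAA or its reverse complement TTCAAA, and the CCAAT box or its reverse complement ATTGG. The windows are chr7:135716330-135716629 on the minus strand for Mki67, chr11:99024140-99024439 on the minus strand for Top2a, chr2:164769679-164769978 on the plus strand for Ube2c and chr4:118437294-118437593 on the minus strand for Cdc20.
Mki67: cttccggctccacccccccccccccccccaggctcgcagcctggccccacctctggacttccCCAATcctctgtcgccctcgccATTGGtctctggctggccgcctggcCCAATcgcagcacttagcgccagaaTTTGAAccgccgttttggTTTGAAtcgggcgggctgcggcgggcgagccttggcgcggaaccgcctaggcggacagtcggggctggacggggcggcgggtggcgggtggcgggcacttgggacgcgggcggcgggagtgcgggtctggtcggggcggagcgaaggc
Top2a: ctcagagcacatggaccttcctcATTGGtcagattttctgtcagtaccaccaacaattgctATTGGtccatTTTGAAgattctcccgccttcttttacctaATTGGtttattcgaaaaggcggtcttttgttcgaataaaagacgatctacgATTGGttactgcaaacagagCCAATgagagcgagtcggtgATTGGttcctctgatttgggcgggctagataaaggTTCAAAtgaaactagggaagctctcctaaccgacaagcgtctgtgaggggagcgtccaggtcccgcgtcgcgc
Ube2c: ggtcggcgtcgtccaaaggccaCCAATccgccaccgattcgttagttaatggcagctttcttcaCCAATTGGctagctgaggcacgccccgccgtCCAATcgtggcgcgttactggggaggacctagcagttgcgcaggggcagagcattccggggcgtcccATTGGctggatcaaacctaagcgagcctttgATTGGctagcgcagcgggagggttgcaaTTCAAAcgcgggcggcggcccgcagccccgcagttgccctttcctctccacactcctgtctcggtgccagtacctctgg
Cdc20: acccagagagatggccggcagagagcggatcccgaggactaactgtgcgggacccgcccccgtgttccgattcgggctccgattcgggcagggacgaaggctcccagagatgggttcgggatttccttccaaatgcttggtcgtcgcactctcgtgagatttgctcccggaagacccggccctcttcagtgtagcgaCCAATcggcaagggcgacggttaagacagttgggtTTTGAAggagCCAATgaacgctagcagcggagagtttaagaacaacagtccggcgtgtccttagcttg

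Mki67 and Top2a each held 2 matches of the CHR core, and Ube2c and Cdc20 held 1 each. In Cdc20 the core began 18 bases before the start, in Top2a 23 and 179, in Ube2c 29 and in Mki67 98 and 116. CCAAT boxes numbered 3 in Mki67, 6 in Top2a, 6 in Ube2c and 2 in Cdc20, counting both strands, and in Ube2c a box of each strand overlapped in a shared run. Of all 27025 mouse promoter windows of this length, 18.1% held the CHR core and 37.8% a CCAAT box. These matches describe letters in a window and do not show that a factor was bound.

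Among the genes that differed between proliferating and non-cycling ECs, as given below, the CHR core was in 28.0% of the 496 promoters of genes that were higher and in 11.8% of the 414 promoters of genes that were lower, against 11.9% of the 8809 promoters of all genes tested. The CCAAT box was in 53.6%, 29.2% and 38.3% of the same promoters. The core was not spread evenly over the steps of division. It was in 14 of 20 promoters of spindle and kinetochore genes and in 8 of 9 of cytokinesis genes, but in 2 of 13 of replication licensing genes and in 0 of 15 of DNA synthesis genes. The CCAAT box was in 14 of 20, 5 of 9, 10 of 13 and 7 of 15 of these promoters. Of the aCap genes described below, 1 of 10 promoters held the core and 4 of 10 the box, and of the gCap genes 1 of 6 and 0 of 6. These counts are descriptions without a test, since the cycle genes follow from the selection.

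**Figure D1:**
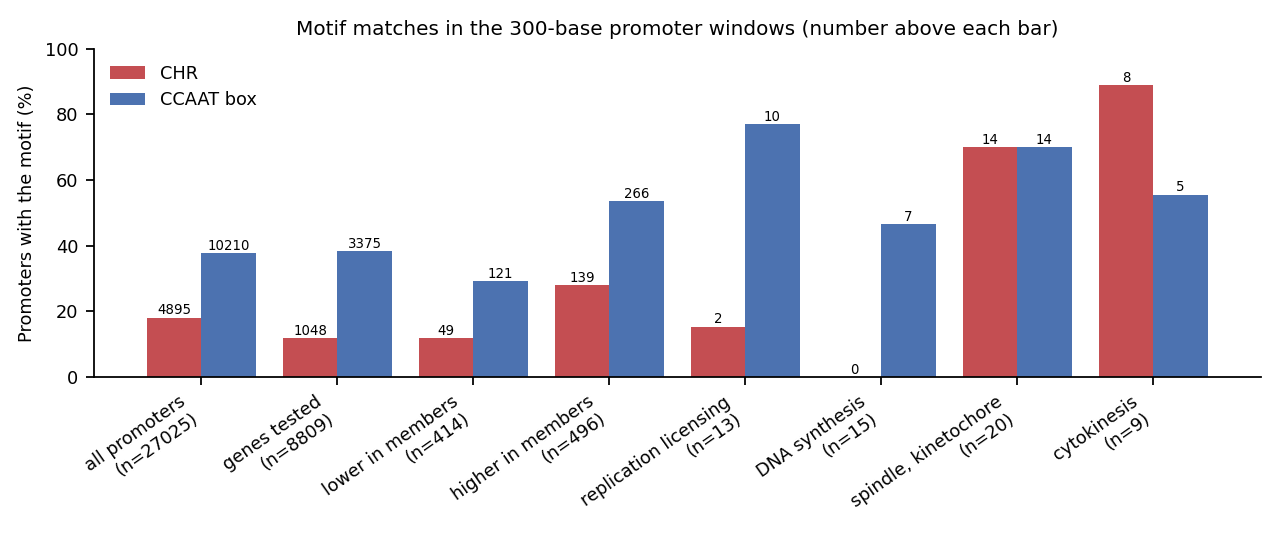
Share of 300-base RefSeq promoter windows (y axis, %) with a CHR core (red) or a CCAAT box (blue) in each gene group (x axis, n is the number of promoters); the number above a bar counts promoters with a match, and lower and higher are genes called in the proliferating ECs. The CHR bars stand at 14 of 20 and 8 of 9 in the spindle and cytokinesis lists and at 0 of 15 in the DNA synthesis list.

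The 8 libraries held 41462258 to 95036340 gene UMIs in 3202 to 5051 cells. Of the selected cells, 92 came from the whole-cell libraries (2 and 7 of WT, 47 and 36 of Tubb3-/- mice) and 28 from the mural cell-enriched ones (1, 3, 14 and 10). No barcode was shared between libraries of a pool, as the split by tag assigns each barcode to 1 mouse, and 59 were shared between the pools. Tubb3 checked the labels. Over all kept cells it had 415 and 219 UMIs in WT mice but 80 and 68 UMIs in Tubb3-/- mice. Cre stands at the start of the coding region in the knock-in, and the 3′ ends that these libraries count may lie outside the altered part, so the UMIs left in Tubb3-/- mice do not bear on the protein. In the proliferating ECs themselves Tubb3 had 1 UMI, in a Tubb3-/- mouse, and in the non-cycling ECs 13 and 3 UMIs in WT and 9 and 2 UMIs in Tubb3-/- mice, so that no Tubb3 difference could be read in either class.

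Markers outside the selection were in place in the whole-cell libraries and less so in the mural cell-enriched ones. Of the 92 proliferating ECs of the whole-cell libraries, 94.6% had a UMI of Pecam1 (CD31) and 91.3% one of Cldn5 (a tight junction protein), beside 94.4% and 91.5% of their non-cycling ECs. Of the 28 cells of the mural cell-enriched libraries, 71.4% and 67.9% had these UMIs, although CD31+ cells had been removed there, 39.3% had at least 4 UMIs of Col1a1 (a fibroblast collagen) and 67.9% at least 4 UMIs of Acta2 (smooth muscle actin). In the non-cycling ECs of these libraries the 4 shares were 84.8%, 80.9%, 18.8% and 47.5%. The Col1a1 and Acta2 shares were 2.17% and 1.09% in the proliferating ECs of the whole-cell libraries. All these shares compare cells of unlike depth, as the proliferating ECs were deeper in every library. In the whole-cell libraries their median was 11551.5 and 7900 UMIs in WT and 17008 and 14020 UMIs in Tubb3-/- mice. The non-cycling ECs there had 6120.5 and 7061 UMIs in WT and 8248 and 8519.5 UMIs in Tubb3-/- mice. Like shares therefore do not show like levels. The markers thus went with the name endothelial in the whole-cell libraries, less so in the others, and results are also given for these alone. As a background, Cdh5 UMIs were in 15.2% of 99 ciliated cells, which should lack it (median depth 17660 UMIs), and 4 of these cells (4.04%, exact 95% interval 1.11 to 10.0%) had 2 or more of the 5 cycle genes. Of 510 neutrophils, which do not divide (median depth 3813 UMIs), 2 cells had 2 or more of the genes (0.392%, interval 0.0475 to 1.41%). Of gated ECs 3.68% had 2 or more (median depth 7450.5 UMIs), which lies between these backgrounds of unlike depth. Free RNA and droplets with more than 1 cell were not told apart in them.

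The UMIs of the selecting genes and the other cycle genes separated the selected cells from that background unevenly. Of the 120 cells, 42 had 2 of the 5 genes, 18 had 3, 18 had 4 and 42 had all 5. The median number of UMIs of the 5 genes was 2 in cells with 2 of the genes, 8 with 3, 19.5 with 4 and 81 with all 5, and 25 of the 42 cells with 2 genes held exactly 2 such UMIs. Just outside the threshold, the 325 ECs with 1 gene had a median of 1 such UMI. UMIs of S and G2/M genes outside the gate numbered 14.2 per 10000 UMIs in ECs with none of the 5 genes, 15.2 in those with 1, 29.2 with 2, 65.0 with 3, 110.5 with 4 and 204.9 with all 5. The cells with 2 genes thus lay nearer to the unselected ECs than to those with all 5. Cells with more of the 5 genes were also deeper, with median UMI counts of 7140 with none, 9165 with 1, 12246.5 with 2 and 17443.5 with 5. These values chose the cells or go with the choice and are given as a description.

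**Figure D2:**
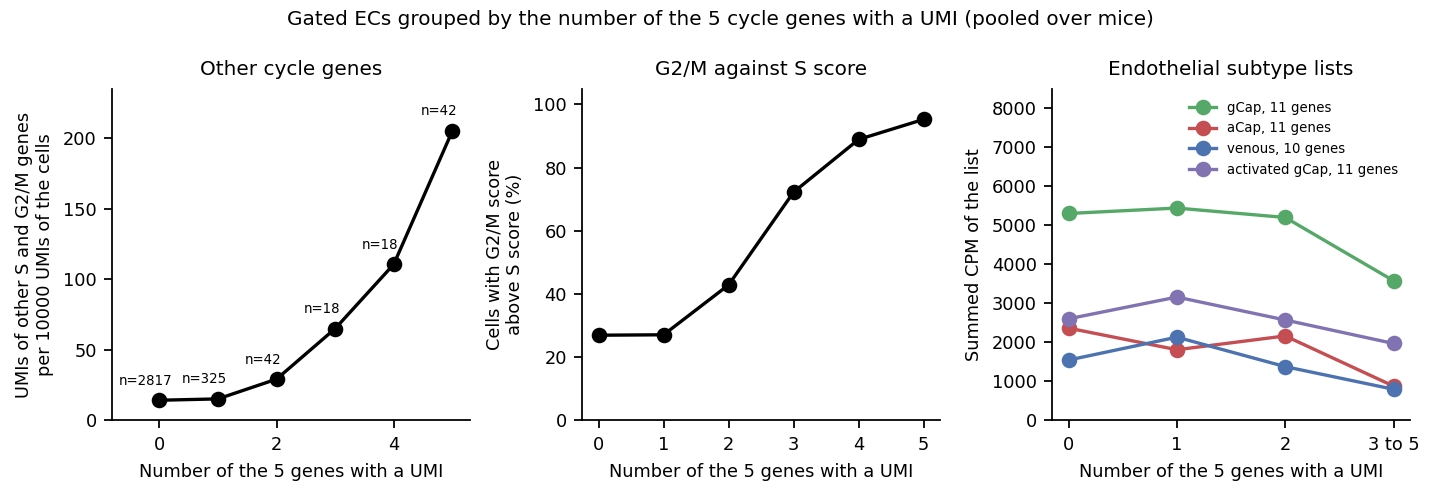
Gated ECs of all mice by the number of the 5 cycle genes with a UMI (x axis): UMIs of other S and G2/M genes per 10000 UMIs (left, n is the number of cells), share of cells whose G2/M score is above the S score (middle, %) and summed CPM of 4 endothelial gene lists (right). Other cycle genes rise from 14.2 to 204.9 per 10000 UMIs. The aCap list stands at 2363 CPM in cells with none of the 5 genes, 2162 CPM with 2 and 877 CPM with 3 to 5. The other lists are also lower with 3 to 5 genes than with none: gCap 3577 against 5299, venous 796 against 1545, activated gCap 1969 against 2601 CPM.

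Levels of the selecting genes are given as CPM, the share of a gene in all UMIs summed over the cells of a mouse, on the scale where 1% equals 10000 CPM. The proliferating ECs of the WT mice held 32373 and 130821 UMIs, so that 1 UMI equals 30.9 and 7.64 CPM there. Low WT values of this class, here and below, thus rest on few UMIs. In the proliferating ECs, Mki67 had 1143 and 359 CPM in WT and 471 and 618 CPM in Tubb3-/- mice. Top2a had 2039 and 474 CPM in WT and 828 and 721 CPM in Tubb3-/- mice. Ube2c had 927 and 436 CPM in WT and 627 and 465 CPM in Tubb3-/- mice. WT replicate 1 was highest for each of these 3 genes, and its value rests on 3 cells. Cdc20 had 247 and 122 CPM in WT and 183 and 186 CPM in Tubb3-/- mice, and Pbk had 309 and 122 CPM in WT and 153 and 166 CPM in Tubb3-/- mice. Cdh5 had 1297 and 894 CPM in WT and 1025 and 1289 CPM in Tubb3-/- mice, beside 1164 and 1396 CPM in WT and 1321 and 1366 CPM in Tubb3-/- mice for the non-cycling ECs, and the ranges of both classes overlapped. Cdc20 and Ube2c overlap the genes Elovl1 and Tnnc2 in the genome, and the use of strand in counting is not given in the sources used here, so their counts are uncertain to that extent.

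The first comparison asks how many ECs were proliferating in each genotype. They were a larger share of the ECs in both Tubb3-/- mice than in either WT mouse. The share was 0.545% in WT replicate 1 (3 of 550 ECs, exact Clopper-Pearson 95% interval 0.113 to 1.59%) and 1.30% in WT replicate 2 (10 of 771, 0.624 to 2.37%). It was 6.16% in Tubb3-/- replicate 1 (61 of 991, 4.74 to 7.84%) and 4.84% in Tubb3-/- replicate 2 (46 of 950, 3.57 to 6.41%). The intervals of the genotypes did not overlap, and they cover counting error only. The WT mean was 0.921% ± 0.531 and the Tubb3-/- mean 5.50% ± 0.929 (SD, n = 2 mice each), a difference of 4.58 percentage points and a ratio of 5.97. The ratio was 10.1 without WT replicate 2, 4.24 without WT replicate 1 and 5.26 and 6.68 without Tubb3-/- replicates 1 and 2. By Xist and Y-linked RNA both mice of replicate 1 were male (Xist 17.6 to 22.6 CPM in their libraries) and both mice of replicate 2 female (632 to 649 CPM), so the share was higher in the Tubb3-/- mouse of each sex. A two-sided exact permutation of the 4 mice gave p = 0.33, the smallest p that 2 mice against 2 allow, so the threshold of 0.05 could not be reached.

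Both Tubb3-/- mice also had higher shares than both WT mice when the selection was made harder or depth was made equal, though the WT mice changed places after thinning. With at least 3 of the 5 genes the shares were 0.364% and 0.778% in WT and 4.44% and 2.74% in Tubb3-/- mice (8 against 70 cells). In the whole-cell libraries alone they were 0.533% and 1.41% against 6.65% and 5.36%. The non-cycling ECs of Tubb3-/- mice were deeper, with a median of 7867 and 7993 UMIs per cell against 5952 and 6285 in WT mice. When each cell was thinned to 5000 UMIs before the gate, the shares were 1.40% and 0.888% against 5.38% and 4.06%, and the ratio of the means fell from 5.97 to 4.13. The WT shares lay between the 0.392% of neutrophils and the 4.04% of ciliated cells, so whether they exceed the background could not be told, and the Tubb3-/- shares lay within the interval of the few ciliated cells but above that of neutrophils.

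**Figure D3:**
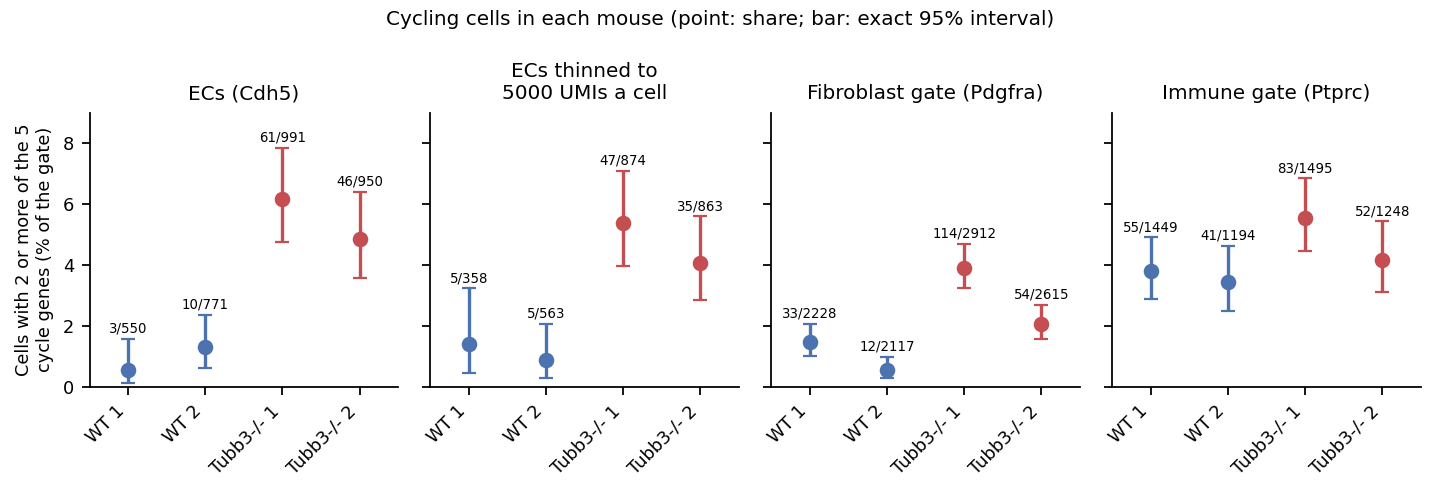
Share of cells with 2 or more of the 5 cycle genes (y axis, % of the gated cells) in each mouse (x axis; blue WT, red Tubb3-/-) among ECs, ECs thinned to 5000 UMIs, Pdgfra cells and Ptprc cells; points are shares, bars exact 95% intervals and labels cycling of gated cells. EC shares are 0.545% and 1.30% in WT and 6.16% and 4.84% in Tubb3-/- mice, and the Ptprc cells lie between 3.43% and 5.55% in all mice.

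The same 5 genes were read in 2 other lineages of the same mice to see whether the share was raised in ECs alone. Of Pdgfra cells (fibroblasts), 1.48% and 0.567% were cycling in WT and 3.91% and 2.07% in Tubb3-/- mice, a ratio of the means of 2.92. The ratio was 5.27 without WT replicate 1, 2.02 without WT replicate 2 and 2.02 and 3.82 without Tubb3-/- replicates 1 and 2. After thinning to 5000 UMIs it was 2.26, beside 4.13 for the ECs. In the whole-cell libraries alone the Pdgfra cells had 1 of 348 (0.287%) and 0 of 365 cycling in WT and 3.74% and 2.25% in Tubb3-/- mice, a ratio of 20.8 that rests on 1 WT cell, beside 6.19 for the ECs of these libraries. Of Ptprc cells (leukocytes), 3.80% and 3.43% were cycling in WT and 5.55% and 4.17% in Tubb3-/- mice, a ratio of 1.34. On the log2 scale, the share of ECs minus that of Ptprc cells was -2.80 and -1.40 in WT and 0.15 and 0.22 in Tubb3-/- mice, a difference of 2.28 (exact permutation p = 0.33, the smallest possible). Against Pdgfra cells it was -1.44 and 1.19 in WT and 0.65 and 1.23 in Tubb3-/- mice, a difference of 1.06 (exact permutation p = 0.667), and here the genotypes overlapped. A share raised more in ECs than in fibroblasts was therefore not detectable with these mice.

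The next comparison asks where in the cycle the cells were. Most had a higher G2/M than S score, computed from published S and G2/M gene lists without the 5 genes. The share was 100% of 3 and 60% of 10 cells in WT mice, and 77.0% of 61 and 67.4% of 46 cells in Tubb3-/- mice. The difference of the means, -7.78 percentage points, was smaller than the spread between the WT mice (exact permutation p = 1). In all gated ECs the share followed the number of selecting genes, from 26.9% with none to 42.9% with 2 and 95.2% with all 5. The 5 selecting genes are late genes, so cells early in S phase could be missed by the gate.

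In the following, proliferating ECs are compared with non-cycling ECs of the same mouse. UMIs were summed per mouse and class, and genes entered edgeR's quasi-likelihood test with the mouse as a block. P-values were adjusted after Benjamini and Hochberg over the 11189 genes that were tested, and the threshold was 0.05. Of these genes, 10.5% were called, 5.56% (622) higher and 4.92% (551) lower in the proliferating ECs, and the median log2 fold change of all genes was -0.10. Of the higher genes, 129 stood on the cycle gene lists and 493 did not. The lists are short, so the 493 can include further cycle genes, whose rise goes with the selection. Fold changes below are on the log2 scale. Their standard error is the size of the fold change divided by the square root of the F statistic of the edgeR test. The block takes out the level of each mouse, so p-values set the class difference against how that difference varies over these 4 mice.

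Cycle genes outside the gate were higher with it, as the selection fixes, and are given as a description of the steps that were reached. Genes of replication licensing had a median of 2.84 over 10 of 16 genes that passed the filter on low counts, genes of DNA synthesis 2.90 over 17 of 18, chromatin condensation 4.21 over all 14, cytokinesis 5.94 over all 10 and spindle and kinetochore genes 6.07 over 23 of 24. Genes of S phase also had UMIs in the non-cycling class, and whether these came from cells early in S phase or from background RNA was not tested. Mcm3, a subunit of the replicative helicase, had 16.0 and 20.0 CPM in WT and 15.9 and 23.7 CPM in Tubb3-/- mice of non-cycling ECs and 92.7 and 84.1 CPM in WT and 73.5 and 72.5 CPM in Tubb3-/- mice of proliferating ECs. Pcna, the sliding clamp of the polymerases, had 61.6 and 73.2 CPM in WT and 64.9 and 70.6 CPM in Tubb3-/- mice and 402 and 306 CPM in WT and 254 and 257 CPM in Tubb3-/- mice. Rrm2, the cycle-bound subunit of ribonucleotide reductase, was near the floor in non-cycling ECs at 0.855 and 1.5 CPM in WT and 1.18 and 1.32 CPM in Tubb3-/- mice, and had 124 and 115 CPM in WT and 128 and 179 CPM in Tubb3-/- mice in proliferating ECs.

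Genes of mitosis were near zero in non-cycling ECs. Cenpf, a kinetochore protein, had 2.57 and 1.69 CPM in WT and 2.62 and 3.03 CPM in Tubb3-/- mice in non-cycling ECs and 1174 and 359 CPM in WT and 459.6 and 416 CPM in Tubb3-/- mice in proliferating ECs. Prc1, which bundles the microtubules of the midzone, had 865 and 275 CPM in WT and 502 and 359.8 CPM in Tubb3-/- mice in proliferating ECs, and Birc5 (survivin), of the chromosomal passenger complex, had 587 and 259.9 CPM in WT and 307 and 311 CPM in Tubb3-/- mice. Classes did not overlap for any of these 3 genes. Of the cyclins and their kinases, Cdk1, the kinase of mitotic entry, had 2.57 and 2.25 CPM in WT and 2.10 and 3.43 CPM in Tubb3-/- mice in non-cycling ECs and 432 and 206 CPM in WT and 354 and 285 CPM in Tubb3-/- mice in proliferating ECs. Its partner Ccna2 had 154 and 168 CPM in WT and 142 and 144 CPM in Tubb3-/- mice in proliferating ECs and at most 0.917 CPM in non-cycling ECs. The D-type cyclins, which couple growth signals to cycle entry, did not follow. Ccnd2 had 104 and 158 CPM in WT and 101 and 126 CPM in Tubb3-/- mice in non-cycling ECs and 30.9 and 68.8 CPM in WT and 50.5 and 76.6 CPM in Tubb3-/- mice in proliferating ECs, lower in every mouse, and Ccnd1 and Ccnd3 had log2 fold changes of -0.45 and -0.59 that did not pass the test (adjusted p = 0.22 and 0.064, edgeR). The transcription factor Foxm1, which drives the mitotic genes, had 30.9 and 7.64 CPM in WT and 63.8 and 58.8 CPM in Tubb3-/- mice in proliferating ECs, and E2f8, an atypical E2F repressor of late S phase, had 30.9 and 22.9 CPM in WT and 37.2 and 43.8 CPM in Tubb3-/- mice. Both WT values of Foxm1, and the 30.9 CPM of E2f8 and of Ccnd2, are the level of a lone UMI.

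The endothelial identity of the cells is independent of the selection except for Cdh5. Some genes that mark all ECs were lower in the proliferating ECs, and so were most genes of aerocytes. Of 18 pan-endothelial genes, 4 were lower and none higher, with a median of -0.37 beside -0.10 for all genes. Of all genes tested 4.92% were called lower, which is the background for the lists below too. Pecam1 had 956 and 1115 CPM in WT and 1046 and 1059 CPM in Tubb3-/- mice in non-cycling ECs and 1019 and 619 CPM in WT and 861 and 1097 CPM in Tubb3-/- mice in proliferating ECs, and did not pass the test (log2 fold change -0.42 ± 0.20, adjusted p = 0.22). Egfl7, a secreted endothelial factor, and Erg, an endothelial transcription factor, had fold changes of -0.16 and -0.20. The 4 lower genes were Kdr, Tek, Ramp2 and Cldn5. Kdr, the main VEGF receptor, had 365 and 445 CPM in WT and 353 and 344 CPM in Tubb3-/- mice in non-cycling ECs and 61.8 and 176 CPM in WT and 194 and 297 CPM in Tubb3-/- mice in proliferating ECs (log2 fold change -1.0 ± 0.25, adjusted p = 0.0062), and the classes did not overlap.

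Of the 11 aCap genes, 9 were lower and none higher in proliferating ECs, with a median of -1.17. The background is 4.92% of genes called lower. Emp2, a membrane protein of thin alveolar cells, had 549.9 and 608 CPM in WT and 546 and 454 CPM in Tubb3-/- mice in non-cycling ECs. In proliferating ECs it had 0 and 145 CPM in WT and 279.8 and 346 CPM in Tubb3-/- mice (log2 fold change -1.38 ± 0.30, adjusted p = 0.0021). Every proliferating value lay under every non-cycling value. Ednrb, the endothelin B receptor, had 176 and 159 CPM in WT and 111 and 97.5 CPM in Tubb3-/- mice in non-cycling ECs and 0 and 7.64 CPM in WT and 44.3 and 64.3 CPM in Tubb3-/- mice in proliferating ECs (log2 fold change -1.40 ± 0.27, adjusted p = 0.00047), again without overlap. Fibin, a secreted protein, had 169.9 and 179.7 CPM in WT and 115 and 115 CPM in Tubb3-/- mice and 0 and 7.64 CPM in WT and 45.2 and 56.1 CPM in Tubb3-/- mice (log2 fold change -1.61 ± 0.27, adjusted p = 5.2e-05). The 7.64 CPM of Ednrb and of Fibin is the level of a lone UMI. Car4, the membrane-bound carbonic anhydrase of aerocytes, had 303 and 325 CPM in WT and 279 and 241 CPM in Tubb3-/- mice in non-cycling ECs and 0 and 168 CPM in WT and 102 and 259 CPM in Tubb3-/- mice in proliferating ECs (log2 fold change -1.02 ± 0.29, adjusted p = 0.019). In Tubb3-/- replicate 2, Car4 was no lower in proliferating ECs, so that the classes overlapped.

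Apln, the ligand apelin that aerocytes make, had 64.7 and 56.9 CPM in WT and 39.6 and 37.7 CPM in Tubb3-/- mice in non-cycling ECs and 0, 0, 19 and 8 UMIs in the proliferating ECs of WT replicates 1 and 2 and Tubb3-/- replicates 1 and 2 (log2 fold change -1.77 ± 0.34, adjusted p = 0.00045). Tmeff2, Cyp4b1, Tbx2 and Prx were lower, with log2 fold changes of -1.44, -1.17, -0.98 and -0.94. Ackr2 and Fendrr had -0.57 and -0.64 and did not pass the test. In the whole-cell libraries alone 9 of the 11 genes were lower with a median of -1.0, under a stricter gate against other cell types 10 with -1.51, in cells with at least 3 of the 5 genes 9 with -1.84 and after thinning to 5000 UMIs 8 with -1.56. Lower RNA per cell and fewer cells of aerocyte type among the dividing cells cannot be told apart in these sums.

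**Figure D4:**
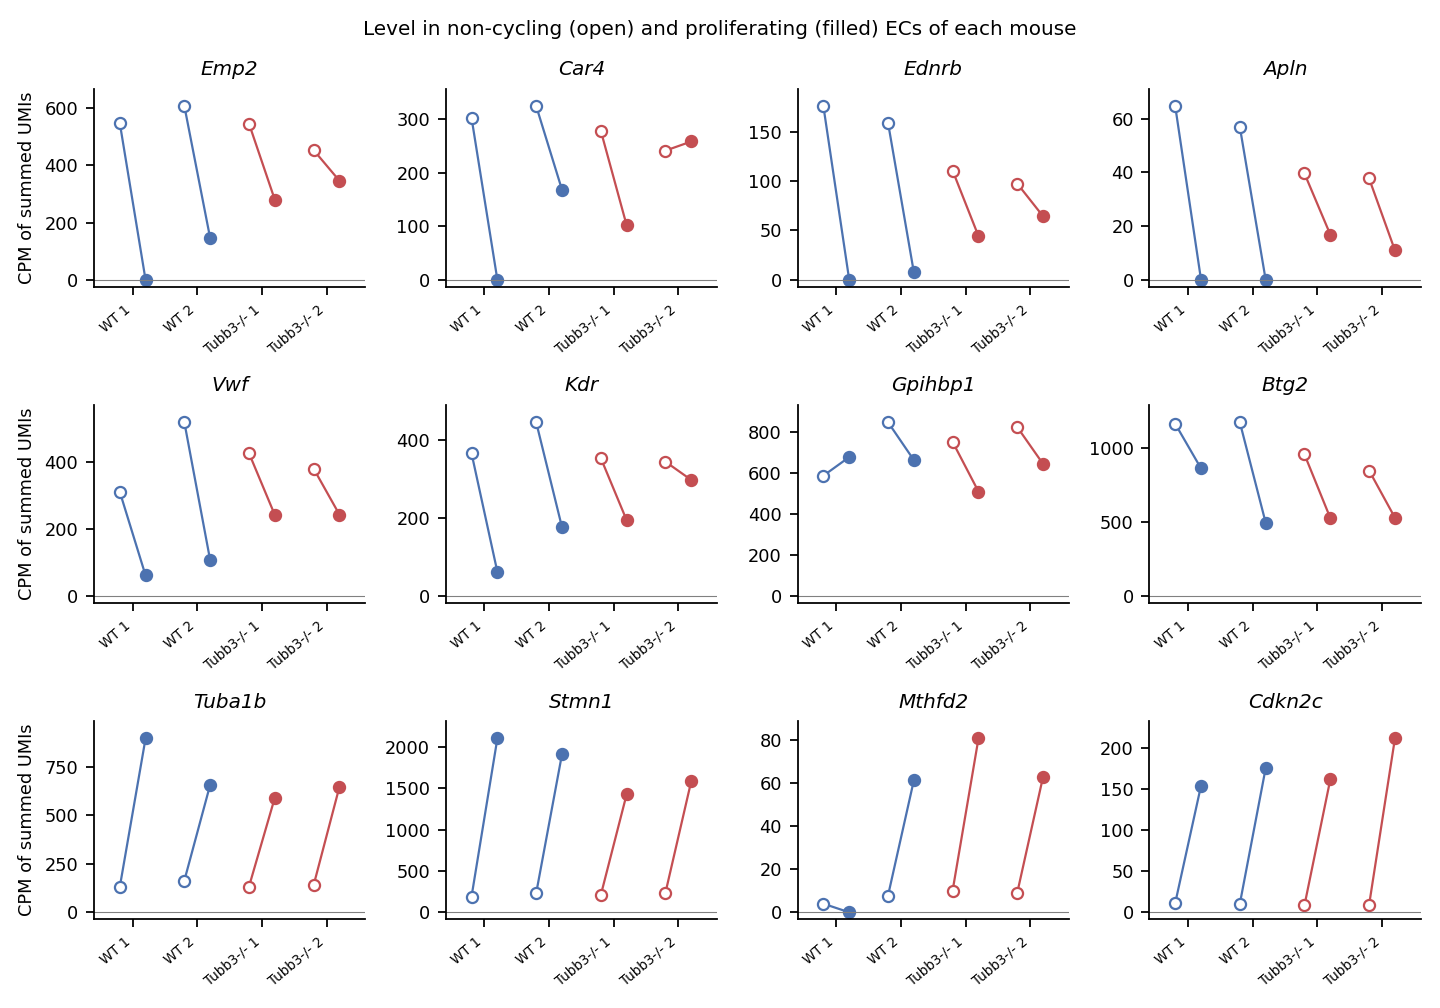
CPM of summed UMIs (linear y axis) of 12 genes in non-cycling (open) and proliferating (filled) ECs of each mouse (x axis; blue WT, red Tubb3-/-), a line joining both classes of a mouse. Emp2, Ednrb, Apln, Vwf and Kdr are lower in the proliferating ECs of all 4 mice, Car4 in 3 of 4, and Tuba1b, Stmn1 and Cdkn2c are higher in all 4.

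Of the 11 genes of general capillary cells (gCap), 2 were lower and none higher, with a median of -0.49. Gpihbp1, which carries lipoprotein lipase to the capillary lumen, had 588 and 850.2 CPM in WT and 754 and 826 CPM in Tubb3-/- mice in non-cycling ECs and 679.6 and 665 CPM in WT and 511 and 646 CPM in Tubb3-/- mice in proliferating ECs and did not pass the test (log2 fold change -0.47 ± 0.20, adjusted p = 0.14). Lpl, Plvap and Aplnr, the apelin receptor, had fold changes of 0.00, -0.35 and -0.42. The lower genes were Nostrin, which regulates nitric oxide synthase, and Fmo2, a monooxygenase. Fmo2 had 299 and 388 CPM in WT and 175 and 214 CPM in Tubb3-/- mice in non-cycling ECs and 124 and 107 CPM in WT and 59.3 and 80.7 CPM in Tubb3-/- mice in proliferating ECs (log2 fold change -1.66 ± 0.22, adjusted p = 9.7e-07), with no overlap. In cells with at least 3 of the 5 genes 7 of the 11 gCap genes were lower, with a median of -1.14. The difference between the aCap and gCap lists was not tested.

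Of 10 venous genes, 6 were lower, with a median of -0.95. Vwf, the clotting factor of larger and venous vessels, had 313 and 520.1 CPM in WT and 428 and 381 CPM in Tubb3-/- mice in non-cycling ECs and 61.8 and 107 CPM in WT and 243 and 243 CPM in Tubb3-/- mice in proliferating ECs (log2 fold change -1.28 ± 0.25, adjusted p = 0.00063), and the classes did not overlap. Selp (P-selectin) had 163 and 104 CPM in WT and 91.1 and 43.4 CPM in Tubb3-/- mice in non-cycling ECs and 0, 0, 21 and 31 UMIs in proliferating ECs. The 31 UMIs of Tubb3-/- replicate 2 are out of 731054, a level close to that of the non-cycling ECs of this mouse. Slc6a2, a noradrenaline transporter, Eln (elastin) and Amigo2 were lower, with log2 fold changes of -1.12, -0.77 and -1.54. Ackr1, a chemokine receptor of venules, had 1 UMI in all proliferating ECs, so no fold is given. Under the stricter gate 4 of the 10 were lower, with a median of -0.59.

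Of 10 arterial genes 1, Fbln5, was lower, and of 9 lymphatic genes Lyve1 and Fgl2. Arterial levels rested on Mgp, a matrix protein that other cells also make, which had 1174 and 17168 CPM in WT and 6061 and 6642 CPM in Tubb3-/- mice in proliferating ECs and was higher than in non-cycling ECs in 3 of 4 mice (log2 fold change 0.24 ± 0.38, adjusted p = 0.79). Prox1, the lymphatic master factor, had 0, 9, 25 and 7 UMIs in proliferating ECs. Of 11 genes of activated gCap cells, a state described in injured lungs, 3 were lower (Ntrk2, Lrg1 and Emp1), with a median of -0.66. Lrg1, which promotes vessel growth, had 344 and 192 CPM in WT and 659 and 538 CPM in Tubb3-/- mice in non-cycling ECs and 649 and 22.9 CPM in WT and 342 and 233 CPM in Tubb3-/- mice in proliferating ECs (log2 fold change -1.04 ± 0.27, adjusted p = 0.011).

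In the whole-cell libraries alone, where 321 of 10081 genes were lower, fewer genes of some lists were. The counts were 2 of 18 pan-endothelial, 1 of 11 gCap, 5 of 10 venous, 1 of 9 arterial, 0 of 9 lymphatic and 2 of 11 activated gCap genes.

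**Figure D5:**
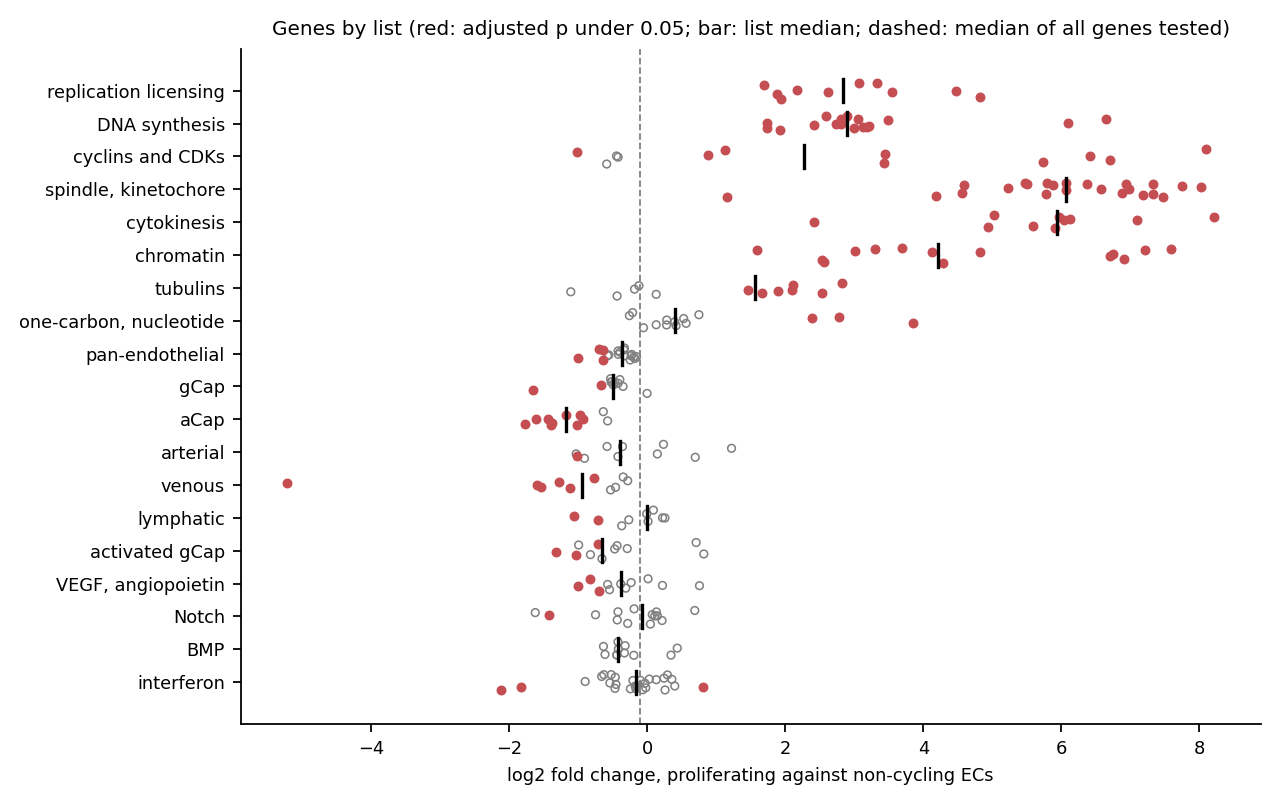
log2 fold change between proliferating and non-cycling ECs (x axis) of the tested genes of each list (y axis); red points passed the test, open points did not, black bars are list medians and the dashed line is the median of all genes (-0.10). aCap and venous points lie mostly left of the line, at medians of -1.17 and -0.95, and the venous point farthest left is Ackr1, whose fitted value rests on 1 UMI in proliferating ECs and is no bound.

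Of 11 VEGF and angiopoietin genes, the receptors and ligands that guide vessel growth, 3 were lower (4.92% of all genes were), namely Kdr, Tek, the angiopoietin receptor, and Nrp1, a VEGF co-receptor, with a median of -0.38, and in the whole-cell libraries alone 1 was lower. Nrp1 had 690.2 and 627 CPM in WT and 578 and 566 CPM in Tubb3-/- mice in non-cycling ECs and 278 and 259.9 CPM in WT and 394 and 540.3 CPM in Tubb3-/- mice in proliferating ECs (log2 fold change -0.83 ± 0.24, adjusted p = 0.019). Of 13 tip cell genes tested, Cxcr4, the receptor of Cxcl12, was higher and Apln and Trp53i11 were lower. Cxcr4 rested on 2, 3, 13 and 10 UMIs in proliferating ECs. Of 14 Notch genes 1, Notch3, a receptor of mural cells, was lower, and of 11 BMP genes tested none was called (1 higher and 3 lower at an unadjusted p under 0.05 in edgeR, which 9.22% of all genes passed upward and 12.5% downward). Dll4 and Hey1, the arterial Notch ligand and target, had -0.19 and 0.15.

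Genes that hold cells out of the cycle were called in both directions. Of 18 genes of cycle inhibitors and p53 targets, Cdkn2c, Cdkn2d, Cdkn3 and Rbl1 were higher, Btg2 was lower, and the median was 0.03. Cdkn2c (p18, an inhibitor of CDK4 and CDK6) had 11.1 and 10.3 CPM in WT and 8.52 and 9.10 CPM in Tubb3-/- mice in non-cycling ECs and 154 and 176 CPM in WT and 162 and 212 CPM in Tubb3-/- mice in proliferating ECs (log2 fold change 4.16 ± 0.22, adjusted p = 2.2e-15). Cdkn1a (p21), the main p53 target, had 659 and 811 CPM in WT and 685 and 629 CPM in Tubb3-/- mice in non-cycling ECs and 741 and 619 CPM in WT and 675 and 676 CPM in Tubb3-/- mice in proliferating ECs, with overlap (log2 fold change -0.21 ± 0.20, adjusted p = 0.62). Btg2, an antiproliferative p53 target, had 1167 and 1178 CPM in WT and 960.2 and 851 CPM in Tubb3-/- mice in non-cycling ECs and 865 and 497 CPM in WT and 529 and 531 CPM in Tubb3-/- mice in proliferating ECs (log2 fold change -0.99 ± 0.20, adjusted p = 0.00086), lower in each mouse. Of 11 genes of quiescence and flow response, Kdr, Thbd (thrombomodulin) and Foxo1 were lower, with a median of -0.46. Klf2, the flow-induced factor, had -0.37 and did not pass the test.

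Since the Tubb3-/- mice lack a tubulin, the tubulin genes were read one by one, first between the classes over the mice of both genotypes. Of 12 tested, 7 were higher in proliferating ECs (Stmn1 included), and the median was 1.57. Dividing cells build a spindle from tubulin, so these rises go with the selection and are given as a description. Tuba1b had 128 and 163 CPM in WT and 132 and 139.5 CPM in Tubb3-/- mice in non-cycling ECs and 896 and 657 CPM in WT and 591 and 647 CPM in Tubb3-/- mice in proliferating ECs (log2 fold change 2.10 ± 0.20, adjusted p = 1.7e-09), without overlap. Tubb5, the main β-tubulin of dividing cells, had 252 and 289 CPM in WT and 319 and 359 CPM in Tubb3-/- mice and 1421 and 1353 CPM in WT and 1203 and 1216 CPM in Tubb3-/- mice (log2 fold change 1.90 ± 0.20, adjusted p = 1.4e-08). Tubb6, Tuba1c and Tubb4b were higher by 2.54, 2.11 and 1.67, and Tubg1, the γ-tubulin of spindle poles, by 1.47. Stmn1 (stathmin), which destabilizes microtubules, had 189.6 and 230.1 CPM in WT and 208 and 236 CPM in Tubb3-/- mice in non-cycling ECs and 2101 and 1911 CPM in WT and 1427 and 1587 CPM in Tubb3-/- mice in proliferating ECs (log2 fold change 2.82 ± 0.20, adjusted p = 3.7e-12). Tuba1a, Tubb2a and Tubb2b had 0.13, -0.18 and -0.44 and did not pass the test. The 7 genes were also called in the whole-cell libraries alone. Between genotypes in proliferating ECs, 0 of 10 genes of this list had an unadjusted p under 0.05 in edgeR, with a median of 0.03. In non-cycling ECs 4 of 12 were higher in Tubb3-/- mice at that threshold, which 4.76% of all genes passed upward. Their list median was 0.14, and none passed the adjusted test.

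Of the metabolic lists, one-carbon and nucleotide synthesis had 3 higher genes of 14 tested and none lower, with a median of 0.41. Mthfd2, the mitochondrial folate enzyme of growing cells, had 3.99 and 7.68 CPM in WT and 10.1 and 9.10 CPM in Tubb3-/- mice in non-cycling ECs and 0 and 61.2 CPM in WT and 80.6 and 62.9 CPM in Tubb3-/- mice in proliferating ECs (log2 fold change 2.78 ± 0.31, adjusted p = 3.7e-08). The others were Psat1 and Phgdh, of serine synthesis, with 3.85 and 2.39, and 1 of the list was called in the whole-cell libraries alone. Of 15 glycolysis genes, Pgk1 was higher and Aldoa lower. Of 12 matrix genes Fn1 (fibronectin) was higher, log2 fold change 0.84 ± 0.24, adjusted p = 0.02, but it turned to -0.37 in cells with at least 2 UMIs of Cdh5 and to -0.69 after thinning.

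Of 27 interferon response genes tested 1 was higher and 2 were lower, with a median of -0.16. Psmb9, an immunoproteasome subunit, had 71.0 and 129 CPM in WT and 80.7 and 128 CPM in Tubb3-/- mice in non-cycling ECs and 432 and 115 CPM in WT and 142 and 259.9 CPM in Tubb3-/- mice in proliferating ECs (log2 fold change 0.81 ± 0.23, adjusted p = 0.017). Cxcl10, an angiostatic chemokine, was lower, with 0, 3, 10 and 8 UMIs in proliferating ECs and 102 and 35.4 CPM in WT and 46.5 and 38.4 CPM in Tubb3-/- mice in non-cycling ECs (log2 fold change -2.11 ± 0.34, adjusted p = 4.1e-05). The other lower gene was Rsad2. Of 7 genes of MHC class II presentation only Ciita was called, and it was lower. Of 11 leukocyte adhesion genes Selp and Ackr1 were lower.

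Markers of other cell types moved with the classes too. Of 10 mural markers 6 were lower in proliferating ECs (median -1.38), of 7 epithelial markers 4 (median -0.83) and of 5 mesothelial markers 2. Fibroblast markers had 1 lower gene, Dcn, of 10, and leukocyte markers had 0 of 6 called (2 at an unadjusted p under 0.05 in edgeR). The summed level of the mural markers was 146 CPM in proliferating and 664 CPM in non-cycling ECs of the whole-cell libraries, and that of the epithelial markers 817 and 3127 CPM. The fibroblast markers stood the other way, at 1222 CPM in proliferating and 803 CPM in non-cycling ECs of these libraries, with 5874 CPM in the 7 cells of WT replicate 2 and 290 to 1477 CPM in the other mice. The leukocyte markers had 415 and 551 CPM. The part of these markers in the genes called was not tested.

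By size, the 5 largest rises among genes of at least 20 CPM that moved the same way in every mouse were Mxd3, Ska1, Pimreg, Esco2 and Neil3, with 8.25 to 9.07. Ska1 binds spindle microtubules to kinetochores, Esco2 joins sister chromatids and Neil3 repairs DNA in replicating cells. None of them had over 0.562 CPM in non-cycling ECs. The cells were selected for division, so rises of genes that act in division go with the selection. The 5 largest falls were Hhip, Kcnq5, Grip1, Sfrp2 and Cfb, with -2.93 to -2.69. Each had 9 to 15 UMIs over all proliferating ECs. Hhip, a Hedgehog inhibitor, and Sfrp2, a Wnt inhibitor, are made by fibroblasts, and Hhip had 78.7 and 17.8 CPM in WT and 33.2 and 31.3 CPM in Tubb3-/- mice in non-cycling ECs.

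The genotype was then compared within the proliferating ECs. No gene passed the test. Of 7071 genes tested with edgeR, 0 (0%) were called at an adjusted p of 0.05, and DESeq2 called 0, while 6.1% (431) had an unadjusted p under 0.05. The WT sums held 32373 and 130821 UMIs against 1129268 and 731054 in the Tubb3-/- mice, which limits what could be seen. At that threshold 3.48% of all genes were higher and 2.62% lower in Tubb3-/- mice. Of 9 activated gCap genes tested, 4 were higher and none lower, with a median of 1.20 beside 0.04 for all genes. These were Col15a1, Emp1, Fxyd5 and Ackr3. In the whole-cell libraries alone, 3 of the 8 tested were higher and 1 lower at that threshold, with a median of 1.01. Emp1, a membrane protein, had 309 and 206 CPM in WT and 725 and 633 CPM in Tubb3-/- mice in the proliferating ECs, and its log2 difference was 1.58 ± 0.34 (SE, adjusted p = 0.57, edgeR). Col15a1, a basement membrane collagen, had 0 and 0 UMIs in WT and 77 and 74 UMIs in Tubb3-/- mice. Against a floor of 3 counts over both WT mice, its pooled level was 4.42-fold higher. The floor covers counting error of UMIs, not the spread between cells or mice. With this gene at that value the list's median was still 1.20.

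Of 6 MHC class II genes tested, 3 were higher at an unadjusted p under 0.05 with a median of 1.28. H2-Eb1 had 92.7 and 91.7 CPM in WT and 300.2 and 152 CPM in Tubb3-/- mice in the proliferating ECs (1.37 ± 0.51, adjusted p = 0.76, edgeR). After thinning before the gate the 4 genes tested were lower instead, with a median of -3.07, so no direction is read for this list. Of 9 aCap genes tested 3 were higher at an unadjusted p under 0.05 (Ednrb, Fibin and Emp2), with a median of 0.58. Of 24 spindle genes 1 and of 16 DNA synthesis genes 2 passed that threshold, the latter downward, with medians of -0.19 and -0.07.

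In the non-cycling ECs 3 of 13456 genes (0.0223%) were called with edgeR, all lower in Tubb3-/- mice, and 10.4% (1399) had an unadjusted p under 0.05, 4.76% upward and 5.63% downward. Ager, a marker of type 1 alveolar epithelium, had 68.1 and 73.6 CPM in WT and 11 and 13.6 CPM in Tubb3-/- mice in non-cycling ECs and 0, 1, 6 and 6 UMIs in proliferating ECs. Ccl2, a monocyte chemokine, had 49.6 and 57.7 CPM in WT and 8.52 and 6.59 CPM in Tubb3-/- mice. Gsta3, a glutathione transferase, had 62.1 and 58.6 CPM in WT and 16.9 and 13.8 CPM in Tubb3-/- mice. Of 9 epithelial markers tested, 5, Ager included, had an unadjusted p under 0.05 in the lower direction (median -1.01), and the part of free epithelial RNA was not tested. Of 11 activated gCap genes 8 were higher at that threshold, with a median of 0.84, and of 7 MHC class II genes all 7, with a median of 0.64. Of 11 aCap genes 6 were lower, with a median of -0.40. None of the activated gCap, MHC class II and aCap genes passed the adjusted test.

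The last comparison asks whether the genotype difference was another in proliferating than in non-cycling ECs. By the interaction term, 77 of 12106 genes (0.636%) were called with edgeR, 34 with a larger and 43 with a smaller difference in proliferating ECs, with a median over all genes of 0.26. With DESeq2's size factors the split was 19 and 53, and the DESeq2 test called 0. Of the 11 aCap genes, 3 were called, all with a larger value (Emp2, Ednrb and Fibin). Emp2 was 0 and 145 CPM in proliferating ECs of WT and 280 and 346 CPM in those of Tubb3-/- mice, whereas in non-cycling ECs WT values were 549.9 and 608 CPM and Tubb3-/- values 546 and 454 CPM (interaction 2.08 ± 0.46, SE, adjusted p = 0.0036). The fall of Emp2 in proliferating ECs was thus larger in the WT mice. In the whole-cell libraries alone 2, under the stricter gate 1, after thinning 1 and in cells with at least 3 of the 5 genes 0 of the 11 genes were called. The WT side of this comparison rests on 13 cells.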

How the data were processed

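Cells were counted by the authors with Cell Ranger 7.1.0 on mm10 with an added Cre sequence, per the submitters' processing notes and the study's methods, and the deposited values are raw UMI counts per gene and cell, split by sample tag, with no normalization or correction for free RNA. Tag counts were set aside. Cells of all 8 matrices were kept at 200 to 7500 genes and at most 15% mitochondrial UMIs, and the gate on Cdh5, the 5 cycle genes, Ptprc, Epcam and Pdgfra was applied to raw counts. Doublets were scored per pool with Scrublet (scanpy 1.11.5), which marked 139 cells (0.982%) of the whole-cell pool and 638 (3.82%) of the mural cell-enriched pool. They were removed only as an alternative, and 1 proliferating EC was among them. The study's own doublet calls and cell annotation were not used here. The upper limit on genes removed 1 further cell of the proliferating class.

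UMIs were summed per mouse and class over both libraries for the quasi-likelihood F test of edgeR 4.0.16 (R 4.3.3; genes kept by filterByExpr, TMM scaling, Benjamini-Hochberg adjustment, threshold 0.05), and with DESeq2 1.42.0 as an alternative. The 9 genes of the gate were left out of the tests. Levels are CPM of the summed UMIs. The 2 classes share their mice, which entered as a block, and genotypes were compared without a block, since no label ties mice of the same number, although both mice of replicate 1 were male and both of replicate 2 female by their RNA. The comparisons within proliferating ECs, within non-cycling ECs and of the interaction share samples. Shares were compared by exact two-sided permutation over the 4 mice. S and G2/M scores were computed with scanpy. Alternatives were DESeq2, no filter on low counts, each mouse left out, whole-cell libraries only, doublets removed, other limits on genes, mitochondrial UMIs, cycle genes and Cdh5, a stricter gate against other cell types, thinning to 5000 UMIs before the gate and, added after the data were seen, haemoglobin at most 1% of UMIs.

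The cells, the gene lists and the tests were chosen with earlier results of these data known. Genes named are those of the gate, Tubb3, the members of each list with the highest mean CPM and those called, and, per comparison, the 5 largest rises and the 5 largest falls that were called, averaged 20 CPM or more and had all mice on the same side. Genes named for their values outside this rule were chosen after these were seen. The tests were tried on simulated counts with known changes. Promoters come from RefSeq (GRCm38.p6), and motifs were searched as exact letters on both strands. Whether counting used strand is not given in the sources used here. Intervals are exact 95% binomial intervals.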

Additional observations from a re-analysis of the deposited data

Results flagged for a closer look

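In 6 genes named by size, the genotype difference in proliferating ECs differed from that in non-cycling ECs by the interaction term in edgeR. Tnc (tenascin C, a matrix protein of injured tissue) had 0 and 0 UMIs in proliferating ECs of WT and 288 and 74 UMIs in those of Tubb3-/- mice, with a fitted interaction of 10.88 on the log2 scale. Against a floor of 3 counts over both WT mice, its pooled level was 10.6-fold higher in proliferating ECs of Tubb3-/- mice. The floor covers counting error of UMIs, not the spread between cells or mice, so this value is no firm minimum. Col15a1 had 0 and 0 against 77 and 74 UMIs and a fitted interaction of 10.38. For both genes the fitted value depends on the prior count and is no bound. Ccl5, a T cell chemokine, had 0 and 1 against 206 and 13 UMIs (3.98), Timp1, an inhibitor of matrix proteases, 0 and 3 against 411 and 91 UMIs (3.28), and Basp1, a membrane-bound signaling protein, 0 and 2 against 133 and 25 UMIs (3.16). Inmt, a methyltransferase, had 2 and 18 against 19 and 12 UMIs (-2.21), with 61.8 and 138 CPM in WT and 16.8 and 16.4 CPM in Tubb3-/- mice. For Tnc, Ccl5, Timp1 and Basp1, Tubb3-/- replicate 1 held most of the UMIs.

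These values rest on 13 proliferating ECs of WT mice. All 6 genes lost their call without WT replicate 2, without either Tubb3-/- mouse, with at least 3 of the 5 cycle genes, with at least 2 UMIs of Cdh5 and in the DESeq2 test, which called no gene of this comparison, and 5 lost it without WT replicate 1 and 5 under the stricter gate. After thinning to 5000 UMIs Ccl5, Basp1 and Inmt changed sign and the other 3 lost their call.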

How the results depend on the processing

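Between proliferating and non-cycling ECs, 1173 genes were called, 786 to 1528 under the other settings and 600 to 1423 with 1 mouse left out, the lowest without Tubb3-/- replicate 1. Between genotypes in proliferating ECs the count of 0 became 60 without the filter on low counts, and 1 to 20 with a mouse left out (20 without WT replicate 1, 3 without WT replicate 2, 1 without Tubb3-/- replicate 1 and 12 without Tubb3-/- replicate 2). In non-cycling ECs the count of 3 became 88 with DESeq2, 35 without the filter, 1 in whole-cell libraries only, 11 without doublets, 7 under the stricter gate, 0 with at least 2 UMIs of Cdh5, 0 after thinning and 6 to 489 with a mouse left out (489 and 250 without WT replicate 1 and 2, 6 and 20 without Tubb3-/- replicate 1 and 2). The interaction count of 77 became 0 with DESeq2, 49 without doublets, 50 without the upper limit on genes, 47 with at least 2 UMIs of Cdh5, 33 under the stricter gate, 35 after thinning and 4 to 73 with a mouse left out (5 without WT replicate 2, 4 and 7 without Tubb3-/- replicate 1 and 2).

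The difference in the proliferating share (4.58 points) was 3.02 to 5.03 under other settings and 3.92 to 5.23 with a mouse left out. That in the G2/M share (-7.78 points) turned to 9.20 without doublets, 7.21 at 10% mitochondrial UMIs, 9.60 under the stricter gate and 10.7 after thinning, and was -27.8 to 12.2 with a mouse left out (12.2 without WT replicate 1). The log2 difference against fibroblasts (1.06) was -0.25 to 2.38 with a mouse left out, reversed without WT replicate 1, and that against leukocytes 1.59 to 2.98. In whole-cell libraries only, WT replicate 2 had 0 of 365 cycling Pdgfra cells, so no log2 difference against fibroblasts was computed. A floor of 3 counts in these cells equals a share of 0.822%, which is not an exact interval. Of 62 named genes of the class comparison, 27 kept their call in every refit and 157 of 969 refits lost it. Of the 6 of the interaction none did, with 63 of 96 refits losing the call and 3 reversed, and of the 3 of non-cycling ECs none, with 11 of 51 losing it. Fn1 reversed after thinning (-0.69) and with at least 2 UMIs of Cdh5 (-0.37). In the interaction, Ccl5 (-0.38), Basp1 (-4.24) and Inmt (7.32) reversed after thinning. The cause of these changes was not tested.

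With the replicate number as a block, the genotype comparison called 0 genes in proliferating and 3 in non-cycling ECs, and the shares differed by 4.58 and -7.78 points and by 1.06 and 2.28 on the log2 scale, so the block changed no call. The labels do not state that the numbers pair the mice, but each number holds mice of 1 sex.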

Other observations

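Haemoglobin genes set 1 library apart. In the proliferating ECs of Tubb3-/- replicate 1, Hbb-bs, an adult β-globin, had 8034 UMIs, against 1 and 4 UMIs in the WT mice and 9 UMIs in Tubb3-/- replicate 2, and Alas2, the erythroid enzyme of haem synthesis, had 35 UMIs there and 0 in the other mice. The 2 cells with over 1% of their UMIs from haemoglobin genes were both of the whole-cell library of that mouse. Without cells above that limit, an alternative chosen after the data were seen, the proliferating share was 5.98% in that mouse and the ratio between genotypes 5.86. Epithelial cells with Epcam were too few to compare, with 5 of 160 and 4 of 165 cycling in WT and 4 of 194 and 10 of 160 in Tubb3-/- mice.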
